A study of Mus musculus with 3 samples.

Results

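The nuclear-encoded subunits of the mitochondrial respiratory chain and ATP synthase were examined in splenic macrophages of mice with acute myeloid leukemia. Genes were taken by symbol, namely Ndufa, Ndufb, Ndufc, Ndufs and Ndufv for complex I, Sdha to Sdhd for complex II, Uqcr for complex III, Cox4 to Cox8 for complex IV and Atp5 for complex V, without assembly factors and pseudogenes. A level of 1 FPKM (fragments per kilobase of gene length, scaled to the fragments of the library) in any library was required. This left 81 of the 12961 genes that reached this level, with 37 genes in complex I, 4 in complex II, 8 in complex III, 15 in complex IV and 17 in complex V. The rule named 2 more listed genes that stayed under the minimum. Cox8b had 1 read in the sM-CSF library and is listed at 0 elsewhere, and Ndufa4l2 had 0.48 FPKM in the mM-CSF, 0.12 in the sM-CSF and 0.11 in the control library.

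There were 3 libraries, 1 per group. The macrophages came from leukemia in which mM-CSF was high, from leukemia in which sM-CSF was high, and from leukemia whose title names neither form, taken here as the control. M-CSF is the growth factor of macrophages, and the prefixes are not spelled out in the labels. All recipients were C57BL/6J mice of 6 to 8 weeks that received 800000 leukemia cells carrying GFP and BFP without irradiation. Spleen cells without GR1, with intermediate CD115 and with F4/80 were sorted on day 18. The sources used here do not give how many mice went into a library or how the M-CSF level was raised.

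The respiratory chain passes electrons from NADH (through complex I) and from succinate (through complex II) to ubiquinone, complex III and cytochrome c, and on to oxygen at complex IV. Complexes I, III and IV pump protons, and complex V uses the gradient to make ATP. Complex II has nuclear-encoded subunits alone and is also an enzyme of the citric acid cycle, whereas the other complexes combine nuclear subunits with a few encoded in mitochondrial DNA, which were not analysed here. In macrophages, mitochondrial respiration is linked to alternative activation, and succinate and complex II to inflammatory activation.

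Total estimated counts were 8.57e+06 in the mM-CSF library, 8.94e+06 in the sM-CSF library and 9.09e+06 in the control library. Macrophage markers were present in all 3 libraries, with 8 of 8 detected and summed levels of 874 (mM-CSF), 809 (sM-CSF) and 1533 FPKM (control). Lyz2 alone was at 205 (mM-CSF), 282 (sM-CSF) and 784 FPKM (control). Of the 8 markers, 3 were higher in the mM-CSF than in the control library, and 1 was higher in the sM-CSF than in the control library. Markers of other cells were present as well, and none of those listed in the tables was at 0 in any library. The 7 plasma cell markers summed to 4418 (mM-CSF), 1459 (sM-CSF) and 1402 FPKM (control), the 5 listed myeloid granule markers to 836 (mM-CSF), 164 (sM-CSF) and 161 (control), the 7 B cell markers to 2687 (mM-CSF), 2471 (sM-CSF) and 1338 (control), the 6 listed T cell markers to 452 (mM-CSF), 377 (sM-CSF) and 216 (control), the 7 neutrophil markers to 254 (mM-CSF), 45.9 (sM-CSF) and 38.6 (control), the 5 NK cell markers to 483 (mM-CSF), 307 (sM-CSF) and 236 (control), and the 7 erythroid markers to 3906 (mM-CSF), 3477 (sM-CSF) and 4811 (control). The summed levels of all these other cells except the erythroid ones were thus highest in the mM-CSF library, which also had the highest levels of most respiratory chain genes, and their part in the results was not tested. Leukemia blasts are also marked by the myeloid granule list, and their share in each library was not determined. In such bulk libraries, a different share of cells and a different amount of RNA per cell cannot be told apart.

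Promoter windows of the reference (RefSeq, GRCm38.p6, 250 bases before to 50 after a gene's start) were matched for 67 of the 81 genes. These genes had 72 windows, and the first listed window of each gene was counted. Respiratory chain promoters are known for sites of NRF-1, of the ETS factor GABP (NRF-2) and of YY1, so the letters GCGCANGCG, CCGGAAG and AAGATGGCG were searched on both strands. The first occurred in 19 of 67 windows (28.4%), against 13.5% of windows of the other genes at 1 FPKM or more and 6.47% of all windows. The second occurred in 16 (23.9%), against 18.3% and 9.12%, and the third in 6 (8.96%), against 3.22% and 1.49%. At least 1 of the 3 was found in 34 windows (50.7%), against 31.0% and 15.3%, and no 2 different motifs overlapped in any of the 72 member windows. The letters AAGATGGCG occurred in 5 of 33 complex I windows and 1 of 15 complex V windows, and in 0 of 3, 0 of 5 and 0 of 11 windows of complexes II, III and IV. Among genes without a motif in the counted window, Atp5j held CCGGAAG and AAGATGGCG in its other window, and Atp5c1 held GCGCANGCG in its other window. A match describes the letters alone. The 4 windows printed here belong to the gene farthest above genes of like length in complex I (Ndufa11, chr17:56717512-56717811, plus strand), to a complex I gene with 2 kinds of motif (Ndufs6, chr13:73328433-73328732, minus strand), to the one gene that was lowest in the mM-CSF library (Sdha, chr13:74350191-74350490, minus strand), and to the gene with the highest mean level in complex IV (Cox6a1, chr5:115348909-115349208, minus strand). Capitals mark the motifs, on either strand, and in Ndufa11 and Cox6a1 a run of 10 capitals holds the first motif on each strand.
Ndufa11: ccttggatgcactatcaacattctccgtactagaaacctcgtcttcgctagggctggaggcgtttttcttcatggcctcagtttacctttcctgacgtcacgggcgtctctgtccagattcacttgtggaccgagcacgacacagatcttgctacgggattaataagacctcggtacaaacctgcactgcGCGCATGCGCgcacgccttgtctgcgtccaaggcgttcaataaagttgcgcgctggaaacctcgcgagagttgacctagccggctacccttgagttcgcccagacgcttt
Ndufs6: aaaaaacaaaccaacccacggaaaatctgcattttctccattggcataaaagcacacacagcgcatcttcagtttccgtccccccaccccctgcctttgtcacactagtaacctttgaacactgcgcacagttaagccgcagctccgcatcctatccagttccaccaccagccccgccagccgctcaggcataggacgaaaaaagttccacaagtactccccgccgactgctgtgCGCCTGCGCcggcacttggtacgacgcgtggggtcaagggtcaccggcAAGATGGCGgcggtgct
Sdha: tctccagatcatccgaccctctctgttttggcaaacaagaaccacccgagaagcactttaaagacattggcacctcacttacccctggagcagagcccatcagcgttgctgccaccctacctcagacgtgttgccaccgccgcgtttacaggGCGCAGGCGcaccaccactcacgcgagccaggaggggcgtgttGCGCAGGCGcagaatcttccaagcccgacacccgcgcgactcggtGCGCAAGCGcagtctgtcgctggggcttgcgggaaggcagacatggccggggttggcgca
Cox6a1: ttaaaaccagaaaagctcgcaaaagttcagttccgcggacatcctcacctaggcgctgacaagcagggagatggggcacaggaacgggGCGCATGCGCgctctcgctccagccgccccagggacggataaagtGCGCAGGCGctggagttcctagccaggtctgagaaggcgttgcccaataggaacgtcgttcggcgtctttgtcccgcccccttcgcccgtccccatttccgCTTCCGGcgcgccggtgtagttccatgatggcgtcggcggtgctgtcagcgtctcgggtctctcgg

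Before adjustment for gene length, respiratory chain transcripts were highest in the mM-CSF library. They took 1.15% of counts in the mM-CSF library, 0.695% in the sM-CSF library and 0.608% in the control library, and the median member was at 149 (mM-CSF), 80.7 (sM-CSF) and 73.5 FPKM (control). Of the 81 genes, 72 were ordered mM-CSF, sM-CSF, control from high to low, 8 were ordered mM-CSF, control, sM-CSF, and 1, Sdha, was lowest in the mM-CSF library. The lowest members were Cox7a1, at 2.56 FPKM in the mM-CSF, 2.16 in the sM-CSF and 0.91 in the control library, and Cox4i2, at 8.75 (mM-CSF), 1.91 (sM-CSF) and 0.63 FPKM (control). With 1 library per group no test was possible, so each difference describes these libraries, and the intervals given for shares of counts (95%, exact conditional) cover counting error only.

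**Figure D1:**
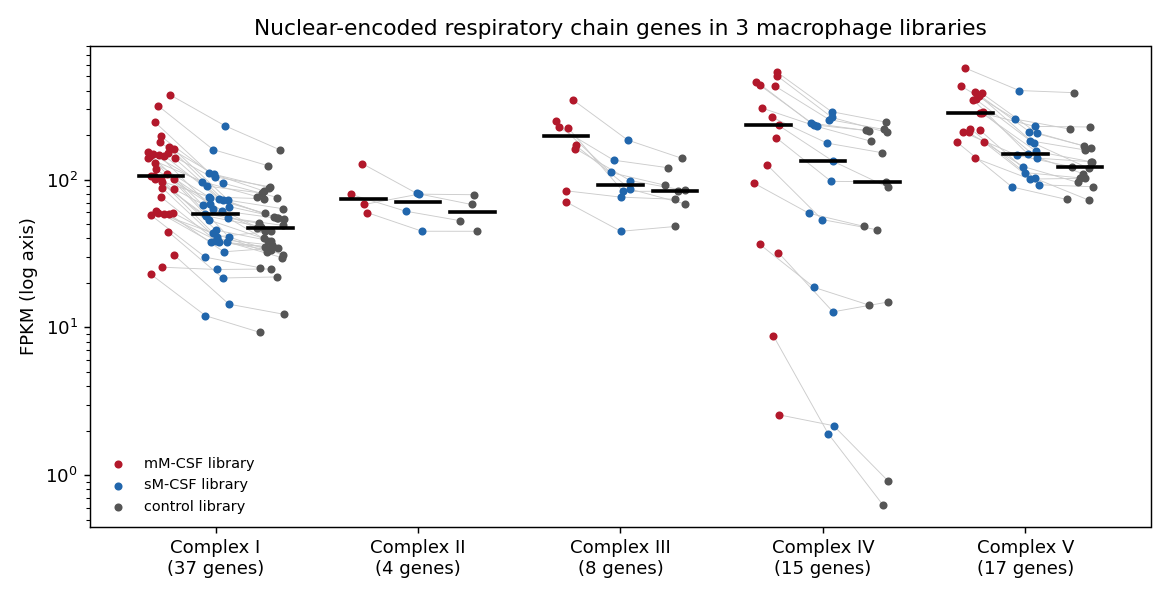
FPKM (log axis) of the 81 genes by complex in the mM-CSF, sM-CSF and control libraries, with thin lines joining a gene's values and black bars at the medians. The bars for complex I lie at 106 (mM-CSF), 58.9 (sM-CSF) and 46.8 FPKM (control), while those for complex II lie close together at 73.7 (mM-CSF), 70.5 (sM-CSF) and 60.4 FPKM (control).

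The mM-CSF and control libraries differed most. A difference is given on the log2(FPKM + 1) scale, which understates the change of low genes, and the size rule for a higher or lower gene was a difference of at least 1 (2-fold) with 5 FPKM or more in the higher library. By this rule 48 of 80 members were higher and 0 lower, against 8.97% of all 9789 genes higher and 15.1% lower. The median difference over the 81 members was 1.11, beside -0.07 over all genes at 1 FPKM or more. The members are short, with a median length of 678 bases against 2616 for all genes, and short genes in general were higher in the mM-CSF library. Of the 780 other genes from 349 to 1000 bases with at least 5 FPKM, 48.1% were higher and 3.97% lower, beside 45 of 58 members under 1000 bases (77.6%). Across 9172 other genes Spearman's rho of difference and length was -0.68, and across the 81 members -0.53, given as a description because the genes share these libraries.

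Each member was therefore also set against the median difference of the 200 non-member genes nearest to it in length, and the remainder is called the length-adjusted difference. The median length-adjusted difference was 0.25, with 68 members above 0 and 13 below. It was 0.15, with 61 above 0, when the 200 genes also had to lie within 4-fold of the member's mean level, and 0.46 with medians of 20 length bins in their place. Past 2-fold after adjustment were 3 of 80 members (3.75%), Ndufa11, Ndufa2 and Cox4i2, beside 3.23% of all genes, so this count was close to the background. None was past 2-fold lower, beside 7.7% of all genes. When FPKM were rescaled to the same sum in each library (TPM), which moved the median over all genes to -0.50, 10 members were higher, the median was 0.66, and 7 members were below 0 in place of 1, among them Ndufs1, Sdhd, Uqcrc2, Atp5a1 and Atp5pb. The share of all genes past 2-fold with TPM was not determined.

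**Figure D2:**
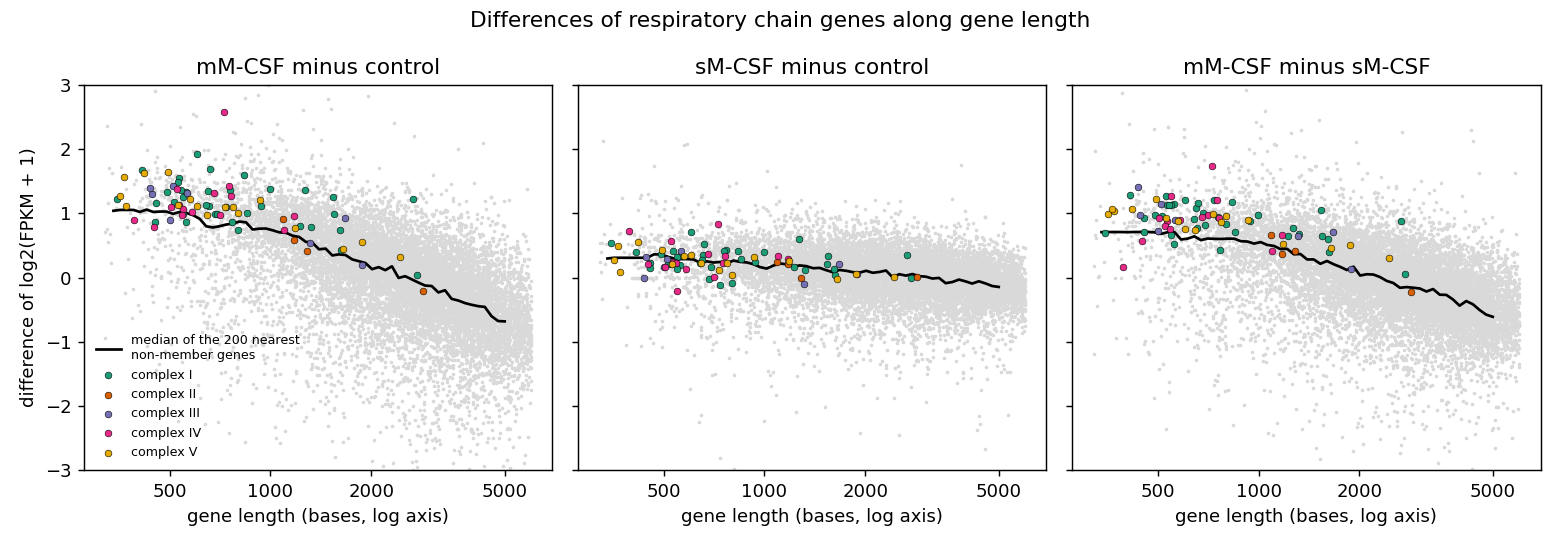
Difference of log2(FPKM + 1) against gene length (log axis) for the 81 members (coloured by complex) and other genes (grey, cropped at differences of 3) in 3 comparisons, with the median of the 200 nearest non-member genes as a black line. Most members lie above the line in the mM-CSF library against either other library (68 and 71 of 81), and 42 of 81 lie above it in sM-CSF minus control.

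Complex I had 24 of 37 genes higher in the mM-CSF than in the control library, with a median difference of 1.16 and a length-adjusted median of 0.32 (33 above 0). Its summed share of counts was 2.17-fold that of the control (2.13 to 2.22). The core of the peripheral arm varied among its members. Ndufs8, an iron-sulfur subunit near the ubiquinone site, was at 167 FPKM in the mM-CSF, 73.0 in the sM-CSF and 54.7 in the control library, a 3.03-fold higher share of counts in mM-CSF than control (2.70 to 3.40). Ndufs7, which carries the last iron-sulfur cluster before ubiquinone, was at 145 (mM-CSF), 74.6 (sM-CSF) and 56.0 FPKM (control). Ndufs3 was at 106 (mM-CSF), 56.9 (sM-CSF) and 48.2 FPKM (control). These 3 Q module genes were past 2-fold, with length-adjusted differences of 0.71, 0.55 and 0.34. Ndufv1, the subunit that binds FMN and NADH, was at 58.5 (mM-CSF), 38.1 (sM-CSF) and 34.8 FPKM (control), a difference of 0.73 and 0.36 after adjustment, and Ndufv2, an iron-sulfur partner of Ndufv1, at 59.9 (mM-CSF), 37.9 (sM-CSF) and 29.7 FPKM (control), a difference of 0.99 and 0.62 after adjustment. Ndufs1, the largest subunit, was nearly level in the 3 libraries at 25.6 (mM-CSF), 24.7 (sM-CSF) and 24.9 FPKM (control), a difference of 0.04 for mM-CSF minus control and 0.14 after length adjustment.

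The N module, the NADH-oxidizing tip of complex I, had the highest length-adjusted median among the groups of complex I genes with 5 or more members. Over its 8 genes the difference was 1.30 and the length-adjusted difference 0.54, with all 8 above 0, the lowest being Ndufs1. The module lists were set for this report. Ndufa6 (-0.14 adjusted) and Ndufa7 (-0.03 adjusted) were counted among the other accessory genes. Were they placed in the N module, not all of its genes would lie above 0. Beside Ndufa2, the accessory gene Ndufv3 was at 153 FPKM in the mM-CSF, 67.7 in the sM-CSF and 46.8 in the control library (0.90 adjusted). The ratio of mM-CSF to control for Ndufv3 was 3.27 in FPKM but 2.93 in share of counts. Ndufs4, an accessory gene needed for the stability of the module, was at 30.8 (mM-CSF), 14.4 (sM-CSF) and 12.3 FPKM (control), with an adjusted difference of 0.89. The 5 Q module genes had a length-adjusted median of 0.34, the 18 accessory genes of the membrane arm one of 0.29, and the 6 other accessory genes one of 0.08. With genes of like length and level as the baseline, these 4 medians were 0.45, 0.24, 0.11 and 0.02 in the order given. Whether the modules differ beyond the spread between animals cannot be told with 1 library per group.

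Single accessory genes stood farther out. Ndufa2, an N module gene, was at 147 FPKM in the mM-CSF, 63.1 in the sM-CSF and 38.3 in the control library, a 3.88-fold higher share in mM-CSF than control (3.31 to 4.55) and a length-adjusted difference of 1.00. Ndufa11, a membrane arm gene with a listed length of 2661 bases, was at 22.9 (mM-CSF), 12 (sM-CSF) and 9.24 FPKM (control), a 2.49-fold higher share (2.13 to 2.93). Other genes of the same length did not share this difference, so its length-adjusted difference was 1.25, which rests on the length that the authors used for this gene. Ndufc1, of the membrane arm, was at 101 (mM-CSF), 41.0 (sM-CSF) and 31.0 FPKM (control), a difference of 1.67. Ndufa3, also of the membrane arm and the complex I gene with the highest level, was at 375 (mM-CSF), 232 (sM-CSF) and 160 FPKM (control), with a length-adjusted difference of 0.17. Ndufa4, now regarded as a subunit of complex IV, was at 315 (mM-CSF), 160 (sM-CSF) and 124 FPKM (control), with an adjusted difference of 0.31. At the other end, Ndufb4, of the membrane arm, was at 149 (mM-CSF), 90.4 (sM-CSF) and 81.1 FPKM (control), with a length-adjusted difference of -0.15, the lowest of complex I. Among the 37 genes, 4 were below 0 after adjustment, so the higher levels were spread over most of the complex.

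Before length adjustment, complex II differed least. None of its 4 genes was past 2-fold, the median difference of mM-CSF minus control was 0.50, and the length-adjusted median was -0.10 with 1 of 4 above 0 (0.02 with a pseudocount of 5 FPKM), about as far from 0 as the 0.10 of complex IV. Against genes of like length and level it was -0.13, farther from 0 than complexes IV (0.05) and V (0.06). Its summed share of counts was 1.21-fold that of the control (1.15 to 1.26). Sdha, the flavoprotein that oxidizes succinate, was at 67.95 FPKM in the mM-CSF, 79.8 in the sM-CSF and 79.1 in the control library, a share of counts 0.865 times that of the control (0.810 to 0.922). Sdha was the only member with a negative difference (-0.22, and -0.13 adjusted), or 1 of 7 with TPM. Sdhb, the iron-sulfur subunit that receives electrons from Sdha, was at 128 (mM-CSF), 80.7 (sM-CSF) and 67.9 FPKM (control), a difference of 0.91 and 0.18 after adjustment. The membrane anchor genes Sdhc, at 79.5 (mM-CSF), 61.2 (sM-CSF) and 52.8 FPKM (control), and Sdhd, at 59.8 (mM-CSF), 44.8 (sM-CSF) and 44.7 FPKM (control), had length-adjusted differences of -0.06 and -0.17. The level of Sdha was 52.9% of that of Sdhb in the mM-CSF library, 98.9% in the sM-CSF library and 116% in the control library. Sdha is 2859 bases long and Sdhb 1091, and genes of these lengths differed in the same directions.

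**Figure D3:**
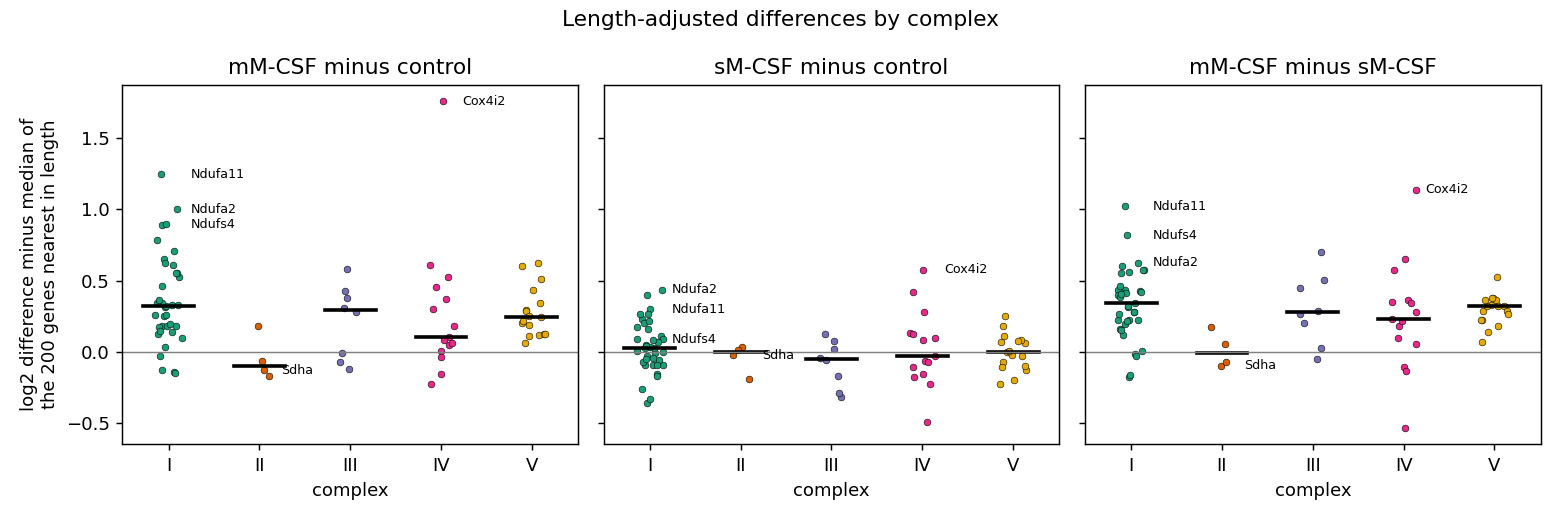
Length-adjusted differences (log2 difference minus the median of the 200 genes nearest in length) of each member by complex in the 3 comparisons, with black bars at the medians. In mM-CSF minus control the bars lie at 0.32, -0.10, 0.29, 0.10 and 0.24 for complexes I to V, with Cox4i2 (1.76) and Ndufa11 (1.25) farthest up. In sM-CSF minus control all 5 bars lie within 0.06 of 0.

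In complex III, 0 of the 3 core and Rieske genes and 4 of the 5 small genes were past 2-fold in mM-CSF over control. This split had the direction of the length trend. The core and Rieske genes have 1313 to 1882 bases, and genes of like length had a median difference of 0.35. The small genes have 436 to 562 bases, and genes of like length had one of 1.02. Of the 780 other genes from the shortest member to 1000 bases, 48.1% were past 2-fold higher. After length adjustment the medians were -0.01 (core and Rieske) and 0.31 (small). Over all 8 genes the median was 1.12 and the length-adjusted median 0.29 (5 above 0). Uqcrc1, a core protein of the matrix side, was at 162 FPKM in the mM-CSF, 98.6 in the sM-CSF and 84.6 in the control library (0.93, and 0.58 adjusted). Its partner Uqcrc2 was at 84.1 (mM-CSF), 76.2 (sM-CSF) and 73.7 FPKM (control), a difference of 0.19 and -0.08 after adjustment. The catalytic Rieske iron-sulfur gene Uqcrfs1 was at 70.7 (mM-CSF), 44.7 (sM-CSF) and 48.2 FPKM (control), a difference of 0.54 and -0.01 after adjustment. The small genes ran from 0.90 to 1.42 in difference. Among them Uqcrh, the hinge protein at the cytochrome c1 side, was at 347 (mM-CSF), 185 (sM-CSF) and 139 FPKM (control), and Uqcrq at 248 (mM-CSF), 112 (sM-CSF) and 91.7 FPKM (control), the largest difference of the complex. Uqcrb, a ubiquinone-binding subunit, was at 226 (mM-CSF), 136 (sM-CSF) and 120 FPKM (control), with the lowest length-adjusted difference (-0.12). Cytochrome c1 itself, the product of Cyc1, was at 90.1 (mM-CSF), 64.4 (sM-CSF) and 57.9 FPKM (control), and cytochrome c (Cycs) at 47.8 (mM-CSF), 33.3 (sM-CSF) and 32.8 FPKM (control).

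Complex IV had 9 of 14 genes past 2-fold in mM-CSF over control, but its length-adjusted median was 0.10, and 0.05 against genes of like length and level, although 0.42 with a pseudocount of 5 FPKM. The median was 0.21 when ribosomal protein genes were left out of the genes of like length. Of its 10 ubiquitous subunits 8 lay above genes of their length, with adjusted differences of -0.23 to 0.61 over the 10. Cox6a1 was at 536 FPKM in the mM-CSF, 289 in the sM-CSF and 245 in the control library (0.10 adjusted). Cox4i1, the ubiquitous form of a regulatory subunit, was at 503 (mM-CSF), 264 (sM-CSF) and 209 FPKM (control), with an adjusted difference of 0.46. Cox7c was at 264 (mM-CSF), 177 (sM-CSF) and 152 FPKM (control), with the lowest adjusted difference (-0.23), and Cox7a2 at 125 (mM-CSF), 53.7 (sM-CSF) and 45.9 FPKM (control), with the highest of the ubiquitous forms (0.61). Cox8a was at 433 (mM-CSF), 255 (sM-CSF) and 219 FPKM (control), with an adjusted difference of -0.04, and Cox6b1 at 462 (mM-CSF), 242 (sM-CSF) and 216 FPKM (control), with an adjusted difference of 0.08. Cox7a2l, a factor of supercomplex assembly, was at 306 (mM-CSF), 230 (sM-CSF) and 182 FPKM (control), and its length-adjusted difference was 0.0025. Per Cox7a2 its level was 244% in the mM-CSF, 427% in the sM-CSF and 397% in the control library.

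The alternative isoforms of complex IV were low, and Cox4i2 differed most among all members. Cox4i2, a form known from lung and from low oxygen, had 53 reads in the mM-CSF, 12 in the sM-CSF and 4 in the control library, a 14.1-fold higher share in mM-CSF than control (5.18 to 53.5). Against the sM-CSF library its share was 4.61-fold higher (2.43 to 9.48). Relative to Cox4i1 its level was 1.74% in the mM-CSF library (1.30 to 2.28), 0.724% in the sM-CSF library (0.373 to 1.27) and 0.301% in the control library (0.082 to 0.773), so the interval of the mM-CSF library lay above both others. Cox6a2, the heart and muscle form, was at 36.6 (mM-CSF), 18.7 (sM-CSF) and 14.2 FPKM (control), or 6.84% (mM-CSF), 6.46% (sM-CSF) and 5.78% (control) of Cox6a1. Cox6b2, known from testis, was at 32.1 (mM-CSF), 12.7 (sM-CSF) and 14.8 FPKM (control), or 6.95% (mM-CSF), 5.27% (sM-CSF) and 6.89% (control) of Cox6b1. For both, the counting intervals of the 3 libraries overlapped. Cox7a1, another muscle form, had 8 (mM-CSF), 7 (sM-CSF) and 3 reads (control), too few to place.

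**Figure D4:**
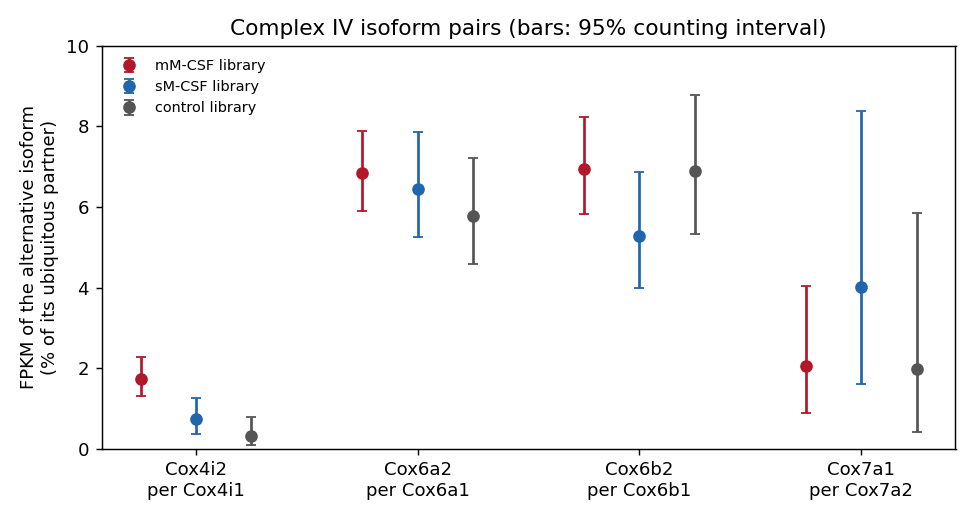
Level of 4 alternative complex IV isoforms as a percentage of the ubiquitous partner in each library, with bars for the 95% counting interval (1 library per group). Cox4i2 per Cox4i1 is 1.74% in the mM-CSF library, above the sM-CSF (0.724%) and control (0.301%) libraries, while the intervals overlap for the other 3 pairs.

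Complex V, the ATP synthase, had 11 of 17 genes past 2-fold in mM-CSF over control, and all 17 lay above genes of like length, by 0.06 to 0.62. The median length-adjusted difference was 0.24, but 0.06 with 15 of 17 above 0 against genes of like length and level. The highest gene encodes part of the catalytic head. Atp5b, the catalytic beta subunit and the highest member of all, was at 572 FPKM in the mM-CSF, 401 in the sM-CSF and 388 in the control library (0.56, and 0.29 adjusted). Atp5a1, the alpha subunit, was at 284 (mM-CSF), 229 (sM-CSF) and 227 FPKM (control), a difference of 0.32 and 0.34 after adjustment. Atp5c1, the rotating gamma subunit, was at 210 (mM-CSF), 146 (sM-CSF) and 122 FPKM (control). The smallest head subunit, encoded by Atp5e, was at 371 (mM-CSF), 176 (sM-CSF) and 119 FPKM (control), a 3.12-fold higher share in mM-CSF than control (2.79 to 3.50). In the membrane part, Atp5j2 was at 348 (mM-CSF), 149 (sM-CSF) and 110 FPKM (control), 3.18-fold higher (2.86 to 3.54), with the highest length-adjusted difference of the complex (0.62). Atp5pb, of the peripheral stalk, was at 140 (mM-CSF), 101 (sM-CSF) and 102 FPKM (control), a difference of 0.45 and 0.13 after adjustment, and Atp5md, a small membrane subunit, at 287 (mM-CSF), 140 (sM-CSF) and 132 FPKM (control), with the lowest adjusted difference (0.06). The 3 genes that encode the same mature c-ring protein were all highest in the mM-CSF library. Atp5g1 was at 180 (mM-CSF), 92.4 (sM-CSF) and 89.6 FPKM (control), Atp5g2 at 432 (mM-CSF), 257 (sM-CSF) and 220 FPKM (control), and Atp5g3 at 222 (mM-CSF), 112 (sM-CSF) and 103 FPKM (control). Atp5g2 thus had the highest transcript level of the 3 in every library, at 240% (mM-CSF), 278% (sM-CSF) and 246% (control) of Atp5g1. The inhibitor gene of the synthase, listed as Atpif1 and no member by its symbol, was at 104 (mM-CSF), 56.5 (sM-CSF) and 50.8 FPKM (control), a difference of 1.01 and 0.62 after adjustment.

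The sM-CSF library lay close to the control. None of the 79 members with 5 FPKM was past 2-fold in either direction, beside 0.785% of all 9683 genes higher and 1.63% lower, and 1.45% each way among the 760 other genes from 349 to 1000 bases. The median difference was 0.23 over the 81 members and 0.02 over all genes. Above 0 were 73 members (59 with TPM), beside 52.1% of all genes by FPKM. After length adjustment the median was 0.0059, with 42 members above 0 and 39 below, so the members stood where genes of their length stood. Past 2-fold after adjustment were 0 members higher and 0 lower, beside 0.589% and 1.76% of all genes. The complex medians of the length-adjusted difference were 0.03, -0.01, -0.05, -0.03 and 0.0003 for complexes I to V. The summed share of counts was 1.21-fold that of the control for complex I (1.18 to 1.24), 1.06 for complex II (1.02 to 1.11), 1.13 for complex III (1.09 to 1.17), 1.20 for complex IV (1.16 to 1.23) and 1.10 for complex V (1.08 to 1.12).

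Single genes spread around this level. At 1.5-fold, 2 members were higher, Ndufa2 (a 1.65-fold share, 1.38 to 1.98, and 0.43 after length adjustment) and Ndufa13, an accessory gene of the membrane arm, at 68.1 FPKM (sM-CSF) and 44.8 FPKM (control), a difference of 0.59 and 0.40 after adjustment. The share of all genes past 1.5-fold was not determined, so this count has no background beside it. Cox4i2 had a difference of 0.84 but stayed under 5 FPKM, and its interval (0.924 to 13.0) included 1. Atp5e differed by 0.56 and Uqcrh by 0.41, the largest of complexes V and III. The lowest were Cox6b2 (-0.21, interval of the share 0.588 to 1.21), Ndufa8, of the membrane arm (-0.12, interval 0.777 to 1.09), and Uqcrfs1 (-0.11, interval 0.823 to 1.05), all of whose intervals included 1. Sdha was level at 79.8 FPKM in the sM-CSF and 79.1 in the control library. Ndufa13 was chosen here after its values were seen.

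Between the 2 M-CSF forms, the mM-CSF library was higher for 80 of 81 members (76 with TPM), beside 42.8% of all genes by FPKM. By the size rule 22 of 80 were higher (27.5%) and 0 lower, beside 3.79% of all 9574 genes higher and 8.73% lower, and 18.8% higher and 2.05% lower among other genes from 349 to 1000 bases. The median difference was 0.89 over the members and -0.11 over all genes. The length-adjusted median was 0.29, with 71 of 81 above 0, and 2 of 80 members, Ndufa11 (1.02) and Cox4i2 (1.14), were past 2-fold after adjustment, beside 2.11% of all genes, and 0 were past 2-fold lower, beside 4.4%. This comparison shares the mM-CSF library with the comparison to control, so the 2 are not separate evidence. Complex medians after adjustment were 0.34, -0.01, 0.28, 0.23 and 0.32 for complexes I to V.

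The genes farthest apart differed somewhat from those above. Uqcr11, a small complex III subunit, was at 223 FPKM in the mM-CSF and 83.3 FPKM in the sM-CSF library, beside 83.7 FPKM in the control, a 2.69-fold higher share in mM-CSF than sM-CSF (2.35 to 3.08). Ndufc1 had the highest difference of complex I (1.28) and Atp5j2 that of complex V (1.22). The lowest in length-adjusted terms were Cox7a1, on few reads (-0.54), Ndufa6, an accessory gene of complex I at 140 FPKM in the mM-CSF and 97.1 FPKM in the sM-CSF library (-0.18), Ndufb3, of the membrane arm (-0.17), Cox7c (-0.14) and Cox7a2l (-0.11). Sdha was the one member with a lower level in mM-CSF (-0.23, share 0.855, 0.801 to 0.913), or 1 of 5 with TPM. Atp5c1 had the lowest adjusted difference of complex V (0.07).

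Genes that build or feed the chain were set beside its subunits. Of the 41 assembly factor genes with 5 FPKM, 8 were past 2-fold higher in mM-CSF over control and 0 lower. Over all genes these shares were 8.97% and 15.1%. The median over 48 assembly factor genes was 0.46, but 0.02 after length adjustment. Ndufaf8, an assembly factor of complex I, was at 45.4 FPKM in the mM-CSF, 17.5 in the sM-CSF and 15.6 in the control library, and Uqcc2, of complex III, at 90.1 (mM-CSF), 47.5 (sM-CSF) and 35.0 FPKM (control). Of the 17 pyruvate dehydrogenase and citric acid cycle genes none was past 2-fold in any comparison, with medians of 0.04 for mM-CSF minus control (0.02 adjusted) and 0.02 for sM-CSF minus control (-0.05 adjusted). Their largest difference of mM-CSF minus control was that of Suclg1, a subunit of succinyl-CoA ligase, at 67.5 (mM-CSF), 48.4 (sM-CSF) and 39.8 FPKM (control). Regulators of mitochondrial transcription had 0 of 12 genes higher and 1 lower in mM-CSF over control, where 15.1% of all genes were lower. Their median was -0.19 over 13 genes (0.05 adjusted). Gabpa, which encodes the DNA-binding part of NRF-2, was the lower one, at 7.96 (mM-CSF), 13.6 (sM-CSF) and 17.5 FPKM (control), a difference of -1.05 and -0.38 after adjustment. Nrf1 was at 15.2 (mM-CSF), 16.8 (sM-CSF) and 17.99 FPKM (control), and Ppargc1a, a coactivator of mitochondrial biogenesis, did not pass 0.31 FPKM in any library. Ribosomal protein genes, which are also short and abundant and are among the genes of like length, were higher as well. Of 85 such genes, 77 were past 2-fold higher in mM-CSF over control and 1 lower, with a median of 1.23, a length-adjusted median of 0.39 and 82 above 0. Their length-adjusted median was 0.22 in sM-CSF minus control and 0.21 in mM-CSF minus sM-CSF. A level above genes of like length in the mM-CSF library was therefore not particular to the respiratory chain. The length-adjusted medians of mM-CSF minus control were thus near 0 for assembly factors and citric acid cycle genes, from -0.10 to 0.32 for the 5 complexes and 0.39 for ribosomal protein genes, and the differences between these groups were not tested.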

How the data were processed

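RNA sequencing of 3 libraries (BGISEQ-500, 1 ug of total RNA each, per the labels' protocols) was analysed. The submitters' processing notes name Bowtie2 (2.2.5) and RSEM without their roles, and the sources used here give neither the build nor the strand setting. Per the file headers, the deposited tables give, for each NCBI gene, its length, its expected count and its FPKM. The deposited FPKM fitted the count over the length less 36.6, 36.1 and 35.5 bases in the mM-CSF, sM-CSF and control libraries, so the scaling of short genes was alike. The deposited lengths (other unit, bases) differed between libraries for 14 members. The ratio of mM-CSF to control was 3.27 in FPKM and 2.93 in share of counts for Ndufv3, and 2.18 and 2.30 for Atp5j. Counts were whole within 0.005 for 78 members, and those of Ndufa7, Ndufs1 and Cox7c, which may share reads with copies, are less certain.

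Symbols came from a GRCm38.p6 table, which named 17561 of 17615 genes, and 8 further symbols fitting the rule were not analysed here. A gene that a table does not list counted as 0. Like-length medians used 12880 non-member genes at 1 FPKM or more. Shares of counts were compared on counts rounded to whole numbers by exact conditional (Clopper-Pearson) intervals. A floor of 3 counts equals 0.350, 0.335 and 0.330 CPM in the mM-CSF, sM-CSF and control libraries. Python 3.11.15, numpy 2.4.6, pandas 2.3.3 and scipy 1.17.1 were used. The length adjustment was tested on simulated counts with known changes, and the ratio of shares on an example with a known ratio. Other steps were not tested in this way.

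Members and lists were chosen with earlier results of these data known. Named genes were, per complex, the highest in level and the extremes of each comparison among genes at 5 FPKM, members past 2-fold after length adjustment, the catalytic core and isoform families. Examples shown of module, accessory and companion genes beyond these (Ndufv3, Ndufs4, Ndufa7, Ndufa13, Ndufb3, Nrf1, Ppargc1a) were chosen after their values were seen, as were the printed promoters. The values of 1 member are not reported here.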

Additional observations from a re-analysis of the deposited data

How the results depend on the processing

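With 1 library per group, no replicate could be left out. No paired analysis was possible because each group holds 1 library and no result comes from a test. For mM-CSF minus control, TPM scaling gave 10 members higher in place of 48 and a median difference of 0.66 in place of 1.11, and removal of the length trend gave 3 and 0.25. The length-adjusted median of 0.25 became 0.46 with 20 length bins and 0.47 with a pseudocount of 5 FPKM. For sM-CSF minus control, removal of the length trend took the median to 0.0059 in place of 0.23, and a 1.5-fold rule gave 2 higher in place of 0. For mM-CSF minus sM-CSF, TPM gave 2 higher in place of 22 and a median of 0.58 in place of 0.89, removal of the length trend gave 2 and 0.29, a 1.5-fold rule gave 66, and 20 length bins moved the length-adjusted median of 0.29 to 0.47. The shares of all genes past 2-fold with TPM or past 1.5-fold were not determined, so the counts under these 2 settings have no background beside them. For complexes I to V, TPM moved the median of mM-CSF minus control to 0.71, 0.041, 0.66, 0.63 and 0.65, and that of mM-CSF minus sM-CSF to 0.59, 0.077, 0.50, 0.58 and 0.58. Removal of the length trend moved them to 0.32, -0.10, 0.29, 0.10 and 0.24 for mM-CSF minus control, to 0.34, -0.011, 0.28, 0.23 and 0.32 for mM-CSF minus sM-CSF, and to 0.028, -0.051, -0.031 and 0.00032 for complexes I, III, IV and V in sM-CSF minus control. With 20 length bins the length-adjusted medians of mM-CSF minus control became 0.55, 0.66, 0.45 and 0.40 for complexes I, III, IV and V, and those of mM-CSF minus sM-CSF 0.58, 0.50 and 0.49 for complexes III to V. A pseudocount of 5 FPKM gave complexes III to V 0.63, 0.42 and 0.50 in mM-CSF minus control and 0.44, 0.39 and 0.45 in mM-CSF minus sM-CSF. With genes of like length and level, complex V was at 0.064 in mM-CSF minus control and 0.18 in mM-CSF minus sM-CSF. Apart from the constructions named, the cause of these shifts was not tested. The counts and medians over all members moved little with median-of-ratios scaling, CPM, either minimum, a baseline of 50 genes, one without ribosomal protein genes, or members with whole counts alone. The length-adjusted median of complex II in mM-CSF minus control ran from -0.13 to 0.02 over the settings, and that of complex I from 0.19 to 0.55. Depth limits Cox4i2 and Cox7a1, with 4 and 3 control reads.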
